A study of Arachis hypogaea with 30 samples.

Results

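Ah11g246200 is a peanut gene annotated as malate synthase in the deposited table, where it is 1 of 8 genes with that annotation among 82955 genes. It was chosen by its own measured levels across all 10 groups of the study, which moved in opposite ways in the 2 cultivars, so its values are given here as a description and carry no test. The gene lies on the plus strand of chromosome 11 from 71652351 to 71655301, in the coordinates of the deposited table, whose genome build is not stated, and has an exonic length of 1704 bases. Its annotation names malate synthase activity, the glyoxylate cycle and the glyoxysome.

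The study sequenced poly(A) RNA of whole hydroponic peanut seedlings (Arachis hypogaea, an allotetraploid legume) at the 3-leaf stage. HY33 is the cultivar that the labels call tolerant of salt and HY9115 is the one they call sensitive. Each cultivar was taken from water at 0 h and after 3, 12, 24 and 48 h in 100 mM NaCl, 3 biological replicates a group, and no other treatment is named. Water was sampled at 0 h only, so the salt cannot be told apart from the hours that passed or the time of day. The 30 libraries held 13072324 to 18788677 counts, and whether replicates were separate plants or pools is not stated. P-values measure the spread among these libraries, and that spread may be technical. Since the RNA came from whole seedlings, fewer cells that hold a transcript and less of it per cell cannot be told apart.

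Malate synthase joins glyoxylate and acetyl-CoA to give malate. With isocitrate lyase, which splits isocitrate into succinate and glyoxylate, it forms the pair of reactions that set the glyoxylate cycle apart from the citric acid cycle. In germinating oilseeds the cycle works in specialised peroxisomes called glyoxysomes and lets the seedling turn the acetyl-CoA of stored fat into sugar. In cucumber and other plants the genes of both enzymes are known to be on in germination and again in senescence and under sugar starvation.

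In HY33 the transcript was close to undetected at first and abundant from 12 h on. In water at 0 h Ah11g246200 had 0.04, 0.04 and 0.07 FPKM (fragments per kilobase of exon, scaled to the library total), which rest on 1, 1 and 2 counts. After 3 h in salt it had 0.27, 0.08 and 0.06 FPKM, from 7, 2 and 2 counts, and these libraries overlapped those at 0 h. After 12 h it had 23.4, 29.6 and 33.0 FPKM, after 24 h 14.7, 17.7 and 15.6 FPKM, and after 48 h 8.45, 10.7 and 9.77 FPKM. All 9 HY33 libraries from 12 h on were above all 6 of the earlier ones, and the 3 later groups did not overlap one another, with 12 h the highest.

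HY9115 had the transcript in water and in early salt and little of it at 24 h. At 0 h Ah11g246200 had 24.6, 40.2 and 25.4 FPKM, and after 3 h 39.6, 42.7 and 45.1 FPKM. The 3 h libraries overlapped those at 0 h through the single 0 h library at 40.2 FPKM. After 12 h it had 14.5, 10.8 and 6.55 FPKM, after 24 h 0.81, 0.66 and 0.50 FPKM, and after 48 h 3.37, 3.15 and 1.56 FPKM. Every HY9115 library from 12 h on lay below every library at 0 and 3 h, and the 48 h libraries lay between those at 24 h and 12 h without overlap.

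**Figure D1:**
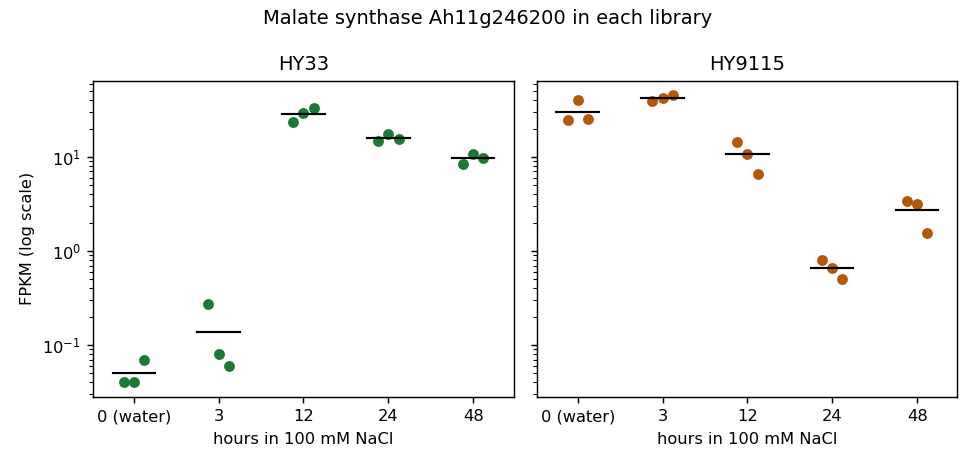
Level of malate synthase Ah11g246200 in each library, in FPKM on a log scale, against hours in salt (0 is water), with HY33 on the left and HY9115 on the right. Each point is 1 library and each bar the mean of 3. HY33 lies at or under 0.27 FPKM at 0 and 3 h and between 8.45 and 33.0 FPKM from 12 h on, while HY9115 lies at or above 24.6 FPKM at 0 and 3 h and between 0.50 and 14.5 FPKM from 12 h on.

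Ordered by mean level, the groups ran from HY9115 at 3 h (42.5 ± 2.72 FPKM, SD, n = 3), through HY9115 at 0 h (30.1 ± 8.82 FPKM), HY33 at 12 h (28.7 ± 4.89 FPKM), HY33 at 24 h (16.0 ± 1.51 FPKM), HY9115 at 12 h (10.6 ± 3.98 FPKM) and HY33 at 48 h (9.62 ± 1.11 FPKM), to HY9115 at 48 h (2.69 ± 0.988 FPKM), HY9115 at 24 h (0.657 ± 0.155 FPKM), HY33 at 3 h (0.137 ± 0.116 FPKM) and HY33 at 0 h (0.05 ± 0.0173 FPKM). Neighbours in this order overlapped in 4 places, which were HY9115 at 3 h and 0 h, HY9115 at 0 h and HY33 at 12 h, HY9115 at 12 h and HY33 at 48 h, and HY33 at 3 h and 0 h. The highest levels that HY33 reached in salt were thus in the range that HY9115 had in water.

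Because HY33 had 4 counts in all at 0 h, its change is given as a ratio of counts scaled by TMM, edgeR's trimmed-mean factors, with a 95% interval that covers counting error alone. Relative to 0 h, HY33 had 638 times as much of the transcript at 12 h (249 to 2343), 363 times at 24 h (141 to 1333) and 260.4 times at 48 h (101 to 958). At 3 h the ratio was 2.68 with an interval of 0.795 to 11.6, which includes no change, and it rests mostly on 1 library with 7 counts. The fitted log2 changes in HY33 were 9.19 ± 0.42 (SE) at 12 h, 8.36 ± 0.45 at 24 h and 7.88 ± 0.47 at 48 h. Here and below the SE is the size of the log2 change over the square root of edgeR's quasi-likelihood F. With 4 counts at 0 h these 3 SEs are narrower than the counting intervals, so they understate the error.

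In HY9115 the change had the other sign from 12 h on. The log2 change of Ah11g246200 from 0 h was 0.51 ± 0.17 (SE) at 3 h, -1.37 ± 0.19 at 12 h, -5.43 ± 0.28 at 24 h and -3.20 ± 0.22 at 48 h. The 24 h level was 43.3 times below that at 0 h. The change in HY33 minus the change in HY9115 came to 0.82 ± 1.27 on the log2 scale at 3 h, 10.56 ± 0.48 at 12 h, 13.79 ± 0.51 at 24 h and 11.08 ± 0.51 at 48 h. The cultivars were therefore not opposed at 3 h, and without the HY33 3 h library with 7 counts that difference was -0.04. From 12 h on the SEs of the differences understate the error too, since each difference holds the few counts of HY33 at 0 h.

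Set side by side, the cultivars changed places between 3 and 12 h. In water at 0 h HY33 had 621 times less of the transcript than HY9115 (interval 242 to 2281, counting error alone), and after 3 h in salt 332 times less (186 to 666). At 12 h it was higher in HY33 by 1.42 ± 0.19 on the log2 scale, at 24 h by 4.65 ± 0.29 and at 48 h by 1.94 ± 0.24. At each of the 5 times the 3 HY33 libraries and the 3 HY9115 libraries did not overlap.

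Markers of the seedling's parts were measured beside the gene. The 82 genes annotated to nutrient reserves or lipid storage bodies, taken as cotyledon and seed reserve markers, held 0.108% to 0.112% of counts in HY33 at 0 h and 0.109% to 0.112% in HY9115 at 0 h, with 64 and 65 of them detected. At 3 h they held 0.0972% to 0.0991% in HY33 and 0.1155% to 0.1161% in HY9115, at 12 h 0.161% to 0.164% and 0.171% to 0.182%, at 24 h 0.142% to 0.145% and 0.130% to 0.154%, and at 48 h 0.132% to 0.134% in HY33 and 0.169% to 0.173% in HY9115. The 60 green shoot markers (RuBisCO small subunits and light-harvesting proteins) held 2.76% to 2.80% of counts in HY33 at 0 h and 2.13% to 2.40% in HY9115. At 3 h they held 2.02% to 2.28% in HY33 and 1.10% to 1.25% in HY9115, and at 48 h 0.396% to 0.425% and 0.352% to 0.387%. The 24 root markers (nitrate transporters and nicotianamine synthases) held 0.0122% to 0.0124% in HY33 at 0 h and 0.0168% to 0.0204% in HY9115, with 18 and 17 detected. Genes of each of these lists were therefore detected in the seedlings. The lists rest on annotation, and their shares of counts shifted with time, so they need not measure how much of an organ was present. The part of such shifts in the level of Ah11g246200 was not tested.

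The other 7 genes annotated as malate synthase show whether the pattern belonged to the enzyme or to the 1 copy. Peanut joins 2 subgenomes, reads of near-identical copies may have been split between them, and how such reads were counted is not stated, so the division of counts among these genes is uncertain. Of the 7, the genes Ah10g122400 and Ah14g049500 stayed under 1 FPKM and were not tested. Ah10g121600 (at most 90 counts in a library) and Ah10g121900 (335 bases, at most 12 counts) passed the minimum of 1 FPKM in 3 libraries almost wholly through HY9115 at 0 to 12 h, so that they were low elsewhere follows in part from that filter. Ah01g225300 (chromosome 1, 58018259 to 58036260), Ah10g122700 (chromosome 10, 16004218 to 16007869) and Ah0g001100 (an unplaced scaffold) had counts in every library. Ah10g122700 has an exonic length of only 438 bases, so its FPKM rests on fewer counts. Over all libraries it had 2204 counts, against 8623 for Ah01g225300 and 32324 for Ah0g001100.

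These 3 copies were present in HY33 at 0 h, at lower levels than in HY9115. Ah01g225300 had 1.36, 2.34, 5.83, 3.37 and 2.22 FPKM on average in HY33 at 0, 3, 12, 24 and 48 h, and 26.3, 17.0, 4.53, 3.46 and 1.88 FPKM in HY9115. Ah10g122700 had 2.67, 5.24, 9.73, 4.79 and 6.06 FPKM in HY33 and 37.1, 26, 5.32, 4.58 and 3.26 FPKM in HY9115. Ah0g001100, the most abundant of the other 7 by FPKM, had 12.9, 20.5, 20.4, 11.5 and 9.0 FPKM in HY33 and 64.1, 49.8, 14.7, 12.9 and 10.1 FPKM in HY9115. None of the 3 was near 0 in HY33 at 0 h, in contrast to Ah11g246200, and at 24 h their means differed little between the cultivars.

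**Figure D2:**
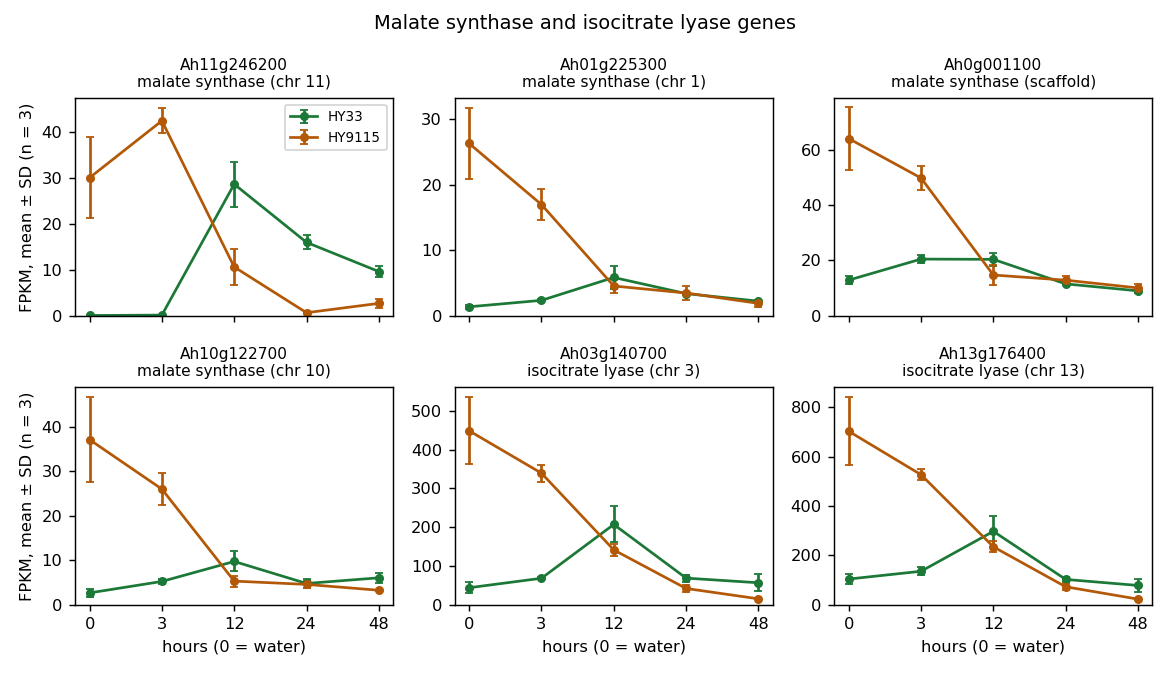
Mean FPKM (error bars SD, n = 3) against time for Ah11g246200, 3 other malate synthase genes and both isocitrate lyase genes, HY33 in green and HY9115 in orange; times are evenly spaced and each panel has its own scale. In HY9115 the other genes start high at 0 h and are low from 24 h on, in HY33 they peak at 3 or 12 h, and Ah11g246200 alone of the 6 has HY33 far above HY9115 at 24 h (16.0 and 0.657 FPKM).

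The other malate synthase genes were tested with edgeR's quasi-likelihood test over 42311 genes. Here a gene is called, and said to have risen or fallen, where p, adjusted by Benjamini and Hochberg's method, is under 0.05 and the log2 change is at least 1 in size. In HY33 none of the 5 tested copies was called at 3 h (3 had an unadjusted p under 0.05, and DESeq2 called 0), where 6.61% of all tested genes rose and 7.45% fell. Ah01g225300 and Ah10g122700 rose at 12 h, by 2.19 ± 0.24 (SE, adjusted p = 1.5e-09) and 1.96 ± 0.27 (adjusted p = 1.2e-07) on the log2 scale, among 11% of all genes that rose and 12.9% that fell. Ah01g225300 rose again at 24 h, by 1.42 ± 0.25, where 10.4% of all genes rose and 13.4% fell. At 48 h, where 14.3% rose and 20.1% fell, Ah10g122700 rose by 1.55 ± 0.28. Ah01g225300 was called there too, at 1.07 ± 0.27, but fell short of the log2 threshold with TPM scaling (0.58) or library totals (0.69), with a minimum of 5 FPKM (0.97) and without HY33 replicate 1 at 0 h (0.92). Ah10g121900 was called at 24 h on 5 counts in all against 0 at 0 h, and that call was lost with DESeq2, TPM scaling, library totals, no filter, only the groups compared, the replicate block, and without HY33 replicate 2 at 24 h (2.35) or any 1 HY33 library at 0 h.

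In HY9115 the 3 more abundant copies fell from 12 h on. At 3 h none of the 5 was called (3 at an unadjusted p under 0.05, 0 by DESeq2), with 8.27% of all genes higher and 6.43% lower. Ah01g225300, Ah10g122700 and Ah0g001100 fell at 12 h, where 11.4% of all genes rose and 12.4% fell, at 24 h, where 9.2% rose and 10.5% fell, and at 48 h, where 14.5% rose and 21.3% fell. Falls were also called for Ah10g121900 at these times and for Ah10g121600 at 24 and 48 h, but these genes passed the filter through HY9115 at 0 to 12 h, so they are not read as further cases. At 48 h the log2 change was -3.53 ± 0.21 (SE) for Ah01g225300 (adjusted p = 2.3e-16), -3.24 ± 0.23 for Ah10g122700 and -2.42 ± 0.13 for Ah0g001100. Unlike Ah01g225300, Ah10g122700 and Ah0g001100, Ah11g246200 was lower at 24 h than at 48 h in HY9115.

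Between the cultivars the same 3 copies were lower in HY33 in water and early salt, at 0 h, where 2.97% of all genes were higher in HY33 and 2.75% lower, and at 3 h, where 2.06% were higher and 3.78% lower. Ah10g121600 and Ah10g121900 were called lower at both times too, which the filter had largely fixed. At 0 h the log2 difference was -4.25 ± 0.22 (SE, adjusted p = 8.7e-17) for Ah01g225300, -3.78 ± 0.24 for Ah10g122700 and -2.30 ± 0.13 for Ah0g001100. At 12 h none of the 5 was called (3 at an unadjusted p under 0.05, 0 by DESeq2), with 1.95% of genes higher and 1.8% lower, and at 24 h none either (0 at an unadjusted p under 0.05, 0 by DESeq2), with 2.41% higher and 2.75% lower. At 48 h Ah10g122700 was higher in HY33 by 1.02 ± 0.27 (adjusted p = 0.003), where 5.97% of genes were higher and 3.06% lower, and it fell under the log2 threshold at 0.94 without HY33 replicate 1 and 0.92 without HY33 replicate 2 of that time, and at 0.78 to 0.99 with TPM scaling, library totals, a minimum of 5 FPKM or only the groups compared. Ah11g246200, at 4.65 and 1.94 above HY9115 on the log2 scale at 24 and 48 h, kept a gap that was called in none of the copies at 24 h and in 1 at 48 h.

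The change from 0 h was itself higher in HY33 than in HY9115 for these 3 copies from 12 h on. At 3 h it was higher for Ah01g225300 and Ah10g122700, where 1.5% of all genes had a higher and 2.95% a lower change. It was higher for all 3 at 12 h, where 2.29% of all genes had a higher and 2.22% a lower one, at 24 h (1.86% and 1.88%) and at 48 h (5.04% and 2.95%). Ah10g121900 was called as well at 12 and 24 h, on few counts. The difference at 12 h was 4.60 ± 0.31 (log2, SE, adjusted p = 2.7e-13) for Ah01g225300, 4.65 ± 0.34 for Ah10g122700 and 2.77 ± 0.18 for Ah0g001100, and it was 10.56 for Ah11g246200. The 8 comparisons with 0 h share the 0 h libraries within each cultivar, so a low or high 0 h group enters all of them.

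With 3 h as the baseline in place of 0 h, an alternative chosen after seeing the data, the direction of Ah11g246200 was kept at every later time. Its log2 change was then 7.85, 7.02 and 6.54 in HY33 at 12, 24 and 48 h, and -1.89 and -5.95 in HY9115 at 12 and 24 h. In HY33 the later rises of the copies were not kept, at 0.68 for Ah01g225300 and 1.32 for Ah10g121900 at 24 h, and at 0.33 for Ah01g225300 and 0.62 for Ah10g122700 at 48 h. The 12 h difference of Ah10g121900 was also lost, at 3.66.

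Added up, the 8 genes gave far more malate synthase transcript in HY9115 than in HY33 in water. Their summed CPM (counts over the TMM-scaled library size, while FPKM uses the unscaled total) were 41.8 ± 3.70 in HY33 and 310.5 ± 62.0 in HY9115 at 0 h (SD, n = 3), and 65.2 ± 3.85 and 265.0 ± 21.7 at 3 h. At 12 h they were 132 ± 23.1 in HY33 and 80.6 ± 19.4 in HY9115, at 24 h 75.2 ± 2.97 and 50.1 ± 7.03, and at 48 h 63.8 ± 4.53 and 47.2 ± 0.727. Without Ah11g246200 the sums at 24 h were 47.4 ± 0.904 in HY33 and 49.0 ± 6.90 in HY9115, and at 48 h 43.9 ± 2.49 and 42.1 ± 2.29. The excess of HY33 in the sum at 24 and 48 h was thus carried by Ah11g246200. These sums are not scaled by exonic length, so a longer gene weighs more in them.

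The share of Ah11g246200 in these counts changed accordingly. In HY33 it was 0.180% ± 0.0589 (SD, n = 3) at 0 h, 0.320% ± 0.251 at 3 h, 37.3% ± 0.682 at 12 h, 36.9% ± 2.62 at 24 h and 31.2% ± 1.19 at 48 h. In HY9115 it was 15.2% ± 1.57 at 0 h, 25.8% ± 0.716 at 3 h, 22.2% ± 3.82 at 12 h, 2.17% ± 0.451 at 24 h and 10.9% ± 4.10 at 48 h. In HY33 the share was nearly level from 12 to 24 h although the level was 28.7 FPKM at 12 h and 16.0 FPKM at 24 h, and in HY9115 it was highest at 3 h. These are shares of counts, and lengths differ, with 1704 bases for Ah11g246200 and 2975 for Ah0g001100. In HY33 at 12 h Ah11g246200 had fewer counts than Ah0g001100 (2065 against 2570) but more FPKM (28.7 against 20.4).

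**Figure D3:**
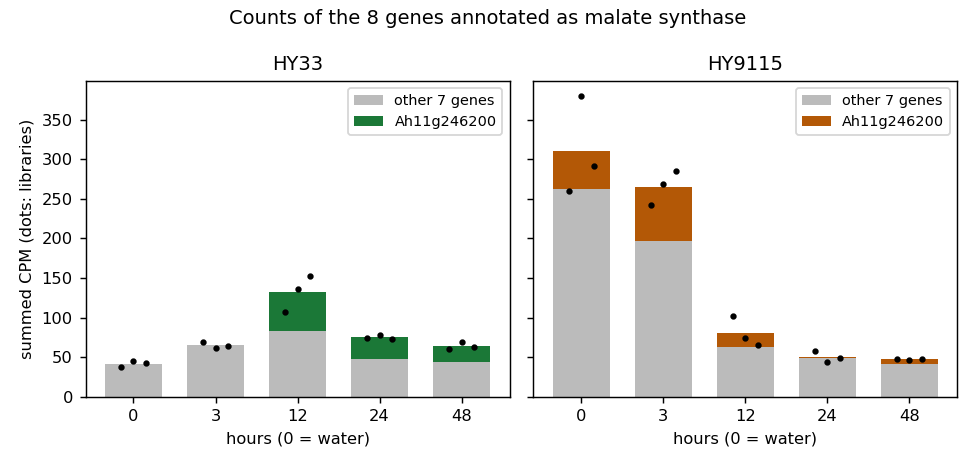
Summed CPM of the 8 malate synthase genes against time, HY33 left and HY9115 right, with the coloured part of each bar for Ah11g246200, the grey part for the other 7 genes (means of 3) and dots for the sum in each library. The coloured part is absent from view in HY33 at 0 and 3 h and makes up 37.3%, 36.9% and 31.2% of the bar from 12 h on, while in HY9115 it nearly vanishes at 24 h (2.17%).

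Isocitrate lyase, the partner enzyme, has 2 tested genes, and both were more abundant by FPKM than the malate synthase genes, with lower levels in HY33 in water. Ah03g140700 had 44.0, 68.3, 207, 68.8 and 56.8 FPKM on average in HY33 at 0, 3, 12, 24 and 48 h, and 448, 339, 141, 42.1 and 15.4 FPKM in HY9115. Ah13g176400 had 104, 136, 298, 103 and 78.4 FPKM in HY33 and 703, 527, 235, 72.9 and 22.9 FPKM in HY9115. In HY33 both rose at 12 h only, by 2.34 ± 0.22 (log2, SE, adjusted p = 3e-11) and 1.62 ± 0.19 (adjusted p = 7.1e-09), and in HY9115 both fell at 12, 24 and 48 h, with log2 changes of -4.61 ± 0.24 and -4.68 ± 0.22 at 48 h.

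Both isocitrate lyase genes were lower in HY33 at 0 h, with log2 differences of -3.34 ± 0.22 and -2.74 ± 0.20 (SE), and higher in HY33 at 48 h, by 2.01 ± 0.22 and 1.9 ± 0.20. At 48 h they were at 56.8 and 78.4 FPKM in HY33 against 15.4 and 22.9 FPKM in HY9115, as Ah11g246200 was at 9.62 FPKM in HY33 against 2.69 FPKM in HY9115. Their changes from 0 h differed between the cultivars at 12, 24 and 48 h, by 3.88 and 3.08 at 12 h and by 5.35 and 4.64 at 48 h. No isocitrate lyase gene was close to 0 in HY33 at 0 h, so the near absence of Ah11g246200 there was not shared by its partner.

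The other steps of the cycle use enzymes that also have forms in mitochondria or the cytosol. Among the 29 tested genes of isocitrate lyase, citrate synthase, aconitase and malate dehydrogenase, 9 rose (31%) and 1 fell (3.45%) in HY33 at 12 h, and 3 rose (10.3%) and 5 fell (17.2%) in HY9115. Over all genes 11% rose and 12.9% fell in HY33 at 12 h, and 11.4% rose and 12.4% fell in HY9115, so the counts in HY9115 lie near the share over all genes. The median log2 change of the 29 was 0.42 in HY33 and -0.03 in HY9115 at 12 h, with -0.03 and -0.02 over all genes. The aconitases Ah13g173500 and Ah03g138400, which interconvert citrate and isocitrate, rose in HY33 at 12 h (1.2 ± 0.12 and 1.15 ± 0.12) and fell in HY9115 at 12 h (-1.84 ± 0.12 and -1.32 ± 0.12), the directions of Ah11g246200. The citrate synthase Ah11g018200 was at 5.70 FPKM in HY33 against 20.7 FPKM in HY9115 at 0 h, rose in HY33 at 12, 24 and 48 h, and had log2 changes of 0.15 to 0.61 in HY9115 at these times, none of them called. Changes were called higher in HY33 than in HY9115 for 8 of the 29 at 12 h (27.6%, against 2.29% of all genes) and lower for 1, higher for 7 at 24 h (24.1%, against 1.86%) and higher for 9 at 48 h (31%, against 5.04%).

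Fatty acid breakdown feeds acetyl-CoA to the cycle. Of its 59 tested genes, 14 rose (23.7%, against 11% of all genes) and 7 fell (11.9%, against 12.9%) in HY33 at 12 h. In HY9115 5 rose (8.47%, against 11.4%) and 6 fell (10.2%, against 12.4%), so all but the rises in HY33 lie near the share over all genes. The falls came mostly from 1 family, the long-chain acyl-CoA synthetases, which make up 28 of the 59 genes. It held all 7 falls in HY33 (25% of the family) and 5 of the 6 in HY9115 (17.9%). Of these 28, 3 rose in HY33 and 1 in HY9115. Acyl-CoA oxidases, which take the first step in the peroxisome, rose in 5 of 9 genes in HY33 and 1 of 9 in HY9115 at 12 h. At 24 h 4 of them rose in HY33 (44.4%, against 10.4% of all genes) and 0 in HY9115 (against 9.2%). At 48 h 5 of them rose in HY33 (55.6%, against 14.3%) and 4 in HY9115 (44.4%, against 14.5%). Their change was called higher in HY33 for 2 at 12 h, and 0 were called at 3, 24 and 48 h (2, 7 and 6 had an unadjusted p under 0.05, and DESeq2 called 0). Between the cultivars none was called at any time (3 to 8 had an unadjusted p under 0.05, and DESeq2 called 0). Of 9 genes of MFP2, which takes the next steps, 3 rose in HY33 and 1 in HY9115 at 12 h, with medians of 0.19 and -0.20. The change at 12 h was called higher in HY33 for 2 of these 9 (22.2%, against 2.29% of all genes). One of the 9, Ah11g425700, had a log2 difference of -1.43 ± 0.10 from HY9115 in HY33 at 0 h and rose there by 1.49 ± 0.10 at 12 h, with a change of 0.10 ± 0.09 in HY9115. The acyl-CoA synthetases Ah19g557500 and Ah09g130100 changed in the same direction in both cultivars, the first up at all 4 times and the second down at 12 and 48 h in both. Of the pair, the change of Ah09g130100 differed between the cultivars at 24 h, by -1.01 ± 0.12, the sign opposite to that of Ah11g246200.

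Downstream of the cycle, genes listed under gluconeogenesis were called at 12 h no more often than all genes. At 3 and 48 h a larger share of them fell than of all genes. The list was made by enzyme and not by compartment. Of its tested genes 12 are fructose-1,6-bisphosphatases and 4 pyruvate phosphate dikinases. Of 19 tested genes 1 rose (5.26%, against 11%) and 2 fell (10.5%, against 12.9%) in HY33 at 12 h, and 2 rose (10.5%, against 11.4%) and 2 fell (10.5%, against 12.4%) in HY9115. At 3 h 7 fell in HY33 (36.8%, against 7.45%) and 4 in HY9115 (21.1%, against 6.43%), and 0 rose in either. At 24 h 4 fell in HY33 (21.1%, against 13.4%) and 4 in HY9115 (21.1%, against 10.5%), and 1 rose in each. At 48 h 7 fell in HY33 (36.8%, against 20.1%) and 6 in HY9115 (31.6%, against 21.3%). PEP carboxykinase, the entry step, had the genes Ah08g106200 and Ah17g479600 between 11.8 and 46.4 FPKM in the group means, with no call in any of the 17 comparisons. These were not unchanged, as Ah08g106200 went from 25.8 FPKM at 0 h to 11.8 at 48 h in HY33 and from 29.3 to 14.0 in HY9115. Ah15g007600 had 1 call (-3.79 ± 1.25 in HY33 at 48 h) and libraries of 1 group far apart, from 14.7 to 126 FPKM in HY33 at 0 h. The fructose-1,6-bisphosphatases Ah14g268800 and Ah04g226600 fell at all 4 times in both cultivars, with log2 changes at 48 h of -3.68 and -3.49 in HY33 and -3.62 and -3.58 in HY9115. Ah19g486600, of the same enzyme, had log2 changes of -2.76 ± 0.17 in HY33 and -4.18 ± 0.17 in HY9115 at 48 h, with a difference of 1.42 ± 0.27 (adjusted p = 0.00015).

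Glyoxylate is also made in photorespiration, where glycolate oxidase acts in leaf peroxisomes. Of 52 tested photorespiration genes 2 rose (3.85%, against 11% of all genes) and 13 fell (25%, against 12.9%) in HY33 at 12 h, and 2 rose (3.85%, against 11.4%) and 6 fell (11.5%, against 12.4%) in HY9115. At 3 h 8 fell in HY33 (15.4%, against 7.45%) and 17 in HY9115 (32.7%, against 6.43%). At 24 h these were 11 (21.2%, against 13.4%) and 7 (13.5%, against 10.5%), and at 48 h 24 (46.2%, against 20.1%) and 25 (48.1%, against 21.3%). The change at 12 h was called higher in HY33 for 1 and lower for 1 (1.92% each, against 2.29% and 2.22%). The phosphoglycolate phosphatases Ah04g376300 and Ah14g443400 and the serine hydroxymethyltransferase Ah18g411600 fell at 48 h in both cultivars, the last with log2 changes of -5.04 in HY33 and -4.13 in HY9115. Of 4 catalases, which remove the hydrogen peroxide of peroxisomes, 1 fell in HY33 and 2 in HY9115 at 12 h. No catalase was called at 3, 24 or 48 h in either cultivar (3 or 4 had an unadjusted p under 0.05, and DESeq2 called 0). Of 27 peroxisome biogenesis genes none was called at 12 h in either cultivar (14 in HY33 and 10 in HY9115 had an unadjusted p under 0.05, and DESeq2 called 0).

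Genes of other reserves were measured for comparison. Of 67 tested genes in the amino acid breakdown list 21 rose (31.3%, against 11% of all genes) and 3 fell (4.48%, against 12.9%) in HY33 at 12 h, and 16 rose (23.9%, against 11.4%) and 5 fell (7.46%, against 12.4%) in HY9115. The list includes 11 asparagine synthases, an enzyme of synthesis and not of breakdown. They gave 4 of the 21 rises in HY33 and 2 of the 16 in HY9115. The asparagine synthases Ah11g044300 and Ah01g053200, an enzyme of nitrogen storage raised by sugar starvation in Arabidopsis, rose at every time in both cultivars. Their change was the larger in HY33 at 24 h, by 2.28 ± 0.12 and 1.94 ± 0.11. Of 22 starch breakdown genes 5 rose (22.7%, against 11%) and 1 fell (4.55%, against 12.9%) in HY33 at 12 h, and 3 rose (13.6%, against 11.4%) and 2 fell (9.09%, against 12.4%) in HY9115. The beta-amylase Ah13g181500 took the directions of Ah11g246200, with 12.6 FPKM in HY33 and 9.69 FPKM in HY9115 at 12 h, 5.71 and 26.1 FPKM at 0 h, and a difference between the changes of 2.55 ± 0.22 at 12 h, while Ah11g183500 fell at 24 and 48 h in both.

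**Figure D4:**
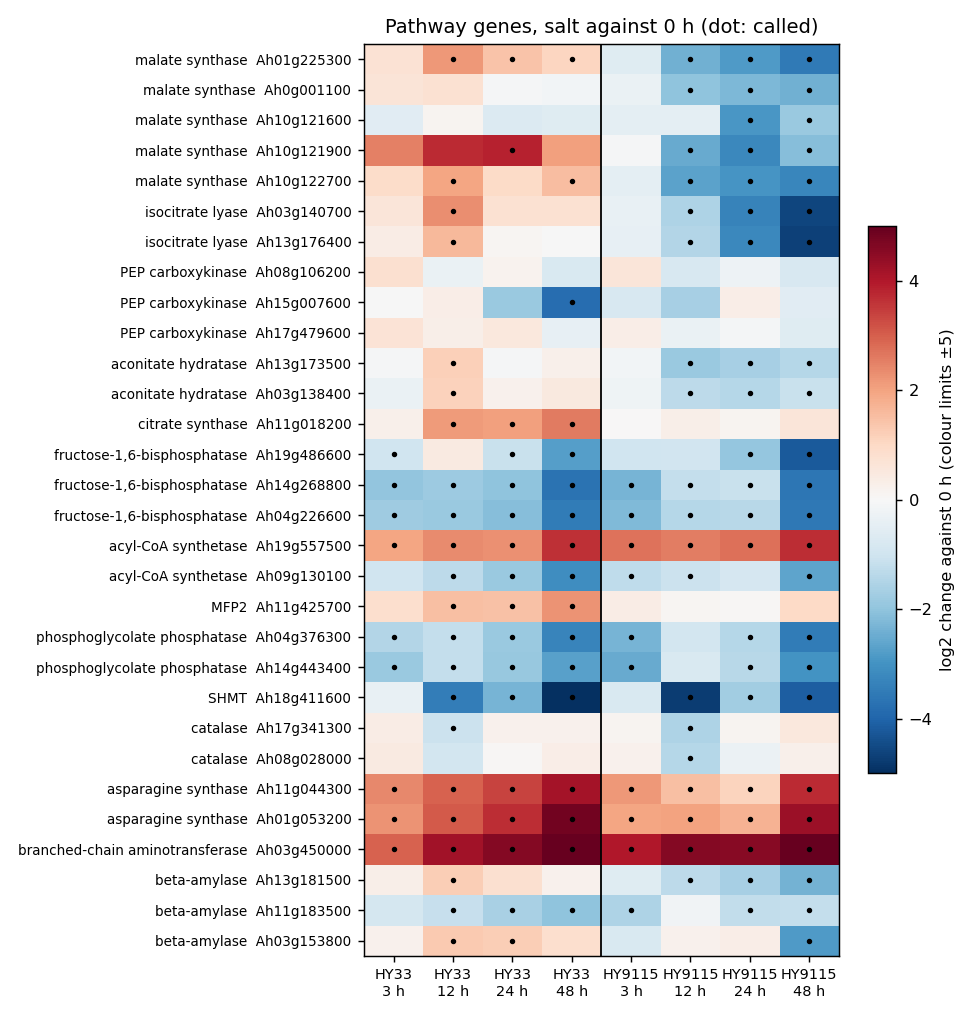
Log2 change against 0 h for named pathway genes (rows) in HY33 (left columns) and HY9115 (right columns) at 3, 12, 24 and 48 h, red for higher and blue for lower with the colour limited at 5 either way and a dot where the change was called. Malate synthase copies other than Ah10g121600, isocitrate lyases and 2 aconitases are red in HY33 and blue in HY9115 at 12 h, whereas fructose-1,6-bisphosphatases and asparagine synthases have 1 colour in both cultivars, except a pale red Ah19g486600 in HY33 at 12 h.

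Over all 284 tested pathway genes other than Ah11g246200, the count called between the cultivars was highest in water. At 0 h 5 were higher (1.76%, against 2.97% of all genes) and 32 lower (11.3%, against 2.75%) in HY33 than in HY9115, and at 3 h 3 were higher (1.06%, against 2.06%) and 19 lower (6.69%, against 3.78%). At 12 h 5 were higher (1.76%, against 1.95%) and 1 lower (0.352%, against 1.8%). At 24 h 5 were higher (1.76%, against 2.41%) and 4 lower (1.41%, against 2.75%), and with TPM scaling 5 and 8. At 48 h 10 were higher (3.52%, against 5.97%) and 3 lower (1.06%, against 3.06%), and with TPM scaling 6 and 14. With TMM scaling neither share was above that over all genes at 12, 24 or 48 h. The change from 0 h was higher in HY33 for 36 (12.7%, against 2.29%) and lower for 7 (2.46%, against 2.22%) at 12 h, and higher for 29 (10.2%, against 1.86%) and lower for 3 (1.06%, against 1.88%) at 24 h. At 48 h it was higher for 28 (9.86%, against 5.04%) and lower for 6 (2.11%, against 2.95%), and for 23 and 9 with TPM scaling. The median of these differences over the 284 genes was 0.17 at 12 h, 0.13 at 24 h and 0.22 at 48 h, against -0.01, -0.03 and 0.04 over all genes, and 13.79 at 24 h for Ah11g246200.

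Of 54 tested seed reserve markers 2, 25, 19 and 22 rose in HY33 at 3, 12, 24 and 48 h and 18, 24, 23 and 25 in HY9115. At 12 h these were 46.3% in HY33 (against 11% of all genes) and 44.4% in HY9115 (against 11.4%), and at 3 h 3.70% in HY33 (against 6.61%) and 33.3% in HY9115 (against 8.27%). At 24 h they were 35.2% in HY33 (against 10.4%) and 42.6% in HY9115 (against 9.2%). At 48 h they were 40.7% (against 14.3%) and 46.3% (against 14.5%). Between the cultivars 2, 17, 1, 14 and 11 of them were lower in HY33 at 0, 3, 12, 24 and 48 h, 31.5% at 3 h (against 3.78%) and 25.9% at 24 h (against 2.75%). At 48 h this was 20.4% (against 3.06%). The 3.70% at 0 h (against 2.75%) and 1.85% at 12 h (against 1.8%) lie near the share over all genes. Green shoot markers fell in 31 of 38 in HY33 (81.6%, against 12.9%) and 22 in HY9115 (57.9%, against 12.4%) at 12 h, and root markers in 6 of 12 in each (50%). Of the 12 root markers 2 rose in HY33 at 12 h, where the median log2 change of the list was -0.93. The change at 12 h was called higher in HY33 for 3 of the 12 (25%, against 2.29% of all genes) and lower for 0. A pair of nicotianamine synthase genes from the root list, Ah16g115000 and Ah06g054100, had a higher change in HY33 at 12 h, by 1.85 ± 0.20 and 1.27 ± 0.23. Their means went up in HY33, from 3.84 and 3.87 FPKM at 0 h to 9.41 and 11.5 FPKM at 12 h, unlike the list's median.

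Among 22339 genes with a mean of at least 5 FPKM, the likeness of each gene's profile to that of Ah11g246200 was taken as Pearson's r of log2 CPM over the 30 libraries, which share their depth and their groups. The median r was 0.045, 12 genes reached 0.8 and 3 reached 0.9. The 3 most alike, Ah11g156300 (r = 0.93), Ah11g156500 (0.917) and Ah01g145100 (0.915), carry no annotation in the table. Next came Ah01g058900 (0.889), annotated with UDP-glycosyltransferase activity, Ah03g069700 (0.889), an ascorbate peroxidase, and Ah02g329400 (0.878), annotated as an arginase or agmatinase. Over the 10 group means these 6 values were 0.906 to 0.942. For comparison, r with Ah11g246200 was 0.738 for Ah01g225300, 0.698 for Ah10g122700, 0.461 for Ah0g001100, and 0.66 and 0.54 for the isocitrate lyases.

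The first 4 of these genes were also almost off in HY33 at 0 h. Ah11g156300 had a mean of 0.363 FPKM in HY33 and 48.5 FPKM in HY9115 at 0 h, and 209 ± 73.2 FPKM in HY33 and 27.1 ± 5.12 FPKM in HY9115 at 12 h (SD, n = 3). Ah01g145100 had 0.137 FPKM in HY33 and 13.4 FPKM in HY9115 at 0 h, and 48.8 FPKM and 5.61 FPKM at 12 h. They parted from Ah11g246200 at 24 h in HY33, where Ah11g156300 had 19.8 FPKM and at 48 h 65.1 FPKM, while Ah11g246200 had 16.0 and 9.62 FPKM. The peroxidase and the arginase varied little, between 54.3 and 88.4 FPKM and between 7.44 and 12.0 FPKM over the 10 group means, so a high r does not mean a change of like size. The profiles least alike were those of Ah03g466600 (r = -0.815), Ah04g393100 (-0.752) and Ah07g267400 (-0.721).

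**Figure D5:**
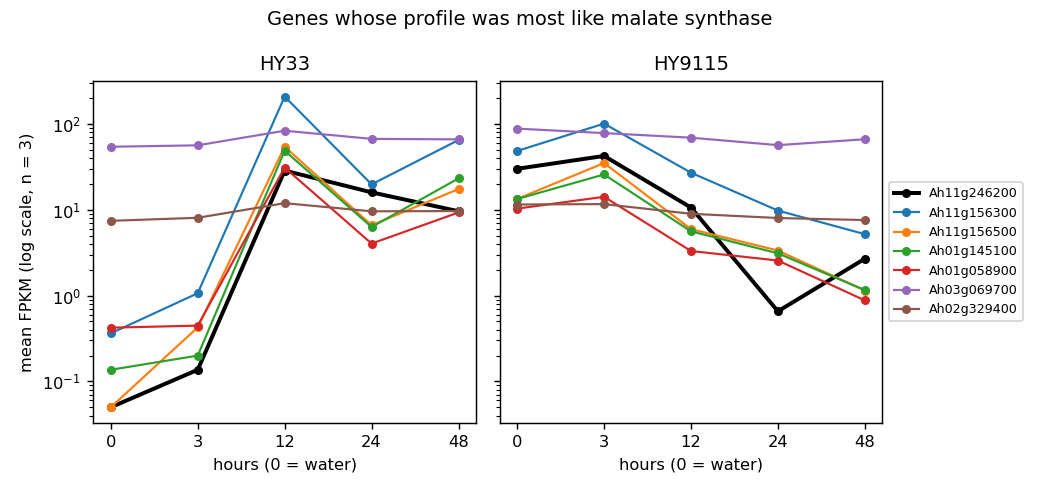
Mean FPKM (log scale, n = 3) against time of Ah11g246200 (black) and the 6 genes with the highest Pearson's r with it over 30 libraries, HY33 left and HY9115 right. Of the 6, 4 go from at most 1.07 FPKM at 3 h to at least 31.1 FPKM at 12 h in HY33 and, unlike Ah11g246200, are lower at 24 h than at 48 h, and the other 2 stay nearly flat.

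On the chromosome, the nearest tested gene on each side of Ah11g246200 had close levels in both cultivars at 0 h. The nearest tested genes on either side, Ah11g246000 and Ah11g246800, had 12.5 and 9.59 FPKM in HY33 and 14.3 and 11.2 FPKM in HY9115 at 0 h. The first was called in none of the 17 comparisons, and the second in 1, a rise of 1.10 ± 0.09 in HY33 at 48 h. Over the 40 tested genes nearest to Ah11g246200 (chromosome 11, 65756491 to 76007082) the median log2 difference of HY33 from HY9115 at 0 h was 0.05, with single genes from -1.96 to 7.58. Of these 40, 7 were called with both directions counted together (17.5%). This is a higher share than over all genes, of which 2.97% were called higher and 2.75% lower. In some runs of 31 neighbouring genes elsewhere HY33 at 0 h stood apart from the later HY33 groups by a median of over 0.75, and these runs hold 434 genes, but neither Ah11g246200 nor any other gene named here lies in them.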

How the data were processed

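Poly(A) RNA of whole peanut seedlings was sequenced in 30 libraries of 10 groups, 3 libraries each, grouped and numbered by the sample titles. The deposited table holds a whole-number read count per gene and library, not normalised by the authors as far as the values show, and the deposited FPKM values equal these counts per exonic kilobase, scaled to the library total, in 100% of values (tolerance 0.005). The tools named in the submitters' processing notes are HISAT2 2.2.1, HTSeq 0.6.1, cutadapt 1.9.1 and DESeq2. Neither a genome build nor the annotation or a use of strand is stated. Reads carry no molecular identifiers, so counting intervals cover counting error only.

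The 42311 genes with at least 1 FPKM in at least 3 libraries, which hold 99.57% of counts, were fitted together with edgeR 4.0.16 (R 4.3.3, with limma 3.58.1 and the package data.table at 1.17.8), using TMM scaling (factors 0.804 to 1.11), a coefficient per group and the quasi-likelihood test, and p-values were Benjamini-Hochberg adjusted over all of them in each of 17 comparisons. The SE of a log2 change was not taken from the fit but is its size over the square root of its quasi-likelihood F. Log2 CPM used a prior count of 2. The gene lists (malate synthase, glyoxylate cycle partners, gluconeogenesis, fatty acid breakdown, photorespiration, catalase, peroxisome biogenesis, amino acid breakdown, starch breakdown and markers of cotyledon and seed reserves, green shoot and root) were defined by KO and GO identifiers. Named genes are all malate synthase genes, the tested isocitrate lyase and PEP carboxykinase genes, up to 3 genes per list called in most comparisons with a mean of at least 5 FPKM, the 6 most and 3 least like profiles, and the nearest tested neighbours. Genes that the rule took from the peroxisome biogenesis list are not reported here. The gene and the lists were chosen with earlier results of these data known. Alternatives were RLE scaling, library totals, TPM scaling, no filter, a minimum of 5 FPKM, DESeq2 1.42.0, only the groups compared, a replicate block and leaving out each library. A 3 h baseline and the omission of genes in runs where HY33 at 0 h stood apart were added after seeing the data. The steps were tested on simulated counts.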

Additional observations from a re-analysis of the deposited data

Results flagged for a closer look

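Ah11g246200 was noted because all 3 HY33 libraries lay above, and all 3 HY9115 libraries below, their own 0 h libraries at 12, 24 and 48 h. The change in HY33 minus the change in HY9115 was 10.56, 13.79 and 11.08 on the log2 scale at these times, and this difference was not tested, since the gene was chosen for it.

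For other genes the test of the difference between the cultivars' changes passed, and the largest called value is given on the log2 scale with its time. Among malate synthase genes it was 4.60 for Ah01g225300 and 2.77 for Ah0g001100 at 12 h, 7.09 for Ah10g121900 at 24 h, on few counts, and 4.80 for Ah10g122700 at 48 h. Among other genes of the cycle it was 5.35 for Ah03g140700 and 4.64 for Ah13g176400 (isocitrate lyases, 48 h), 3.04 for Ah13g173500 and 2.47 for Ah03g138400 (aconitases, 12 h) and 1.98 for Ah11g018200 (citrate synthase, 48 h). In the pathways around it, it was 1.42 for Ah19g486600 (fructose-1,6-bisphosphatase, 48 h), -1.01 for Ah09g130100 (acyl-CoA synthetase, 24 h), 1.43 for Ah11g425700 (MFP2, 24 h), 2.28 for Ah11g044300 and 1.94 for Ah01g053200 (asparagine synthases, 24 h), -1.05 for Ah03g450000 (branched-chain aminotransferase, 3 h), and 2.60 for Ah13g181500 and 3.67 for Ah03g153800 (beta-amylases, 48 h).

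Among markers of the seedling's parts, the seed reserve genes gave -2.64 for Ah16g433200 at 24 h, -2.55 for Ah05g306700 at 3 h and -7.59 for Ah06g017500 at 3 h. The RuBisCO small subunit Ah01g306200 gave 2.75 at 48 h, and the nicotianamine synthases Ah16g115000 and Ah06g054100 gave 1.85 at 12 h and 1.58 at 48 h. The part of such markers in the level of Ah11g246200 was not tested.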

How the results depend on the processing

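Of 4527 recomputed calls of single genes, 4409 kept their direction and stayed past the threshold, 118 fell short of it and none reversed. For Ah11g246200 the values moved most with 3 h as the baseline, to 7.85, 7.02 and 6.54 in HY33 at 12, 24 and 48 h, to -1.89 and -5.95 in HY9115 at 12 and 24 h, and to differences of 9.74, 12.97 and 10.26 at 12, 24 and 48 h, while pathway genes called in the difference at 12 h numbered 26, against 43. The change at 48 h in HY33, 7.88 as reported, was 7.40 with TPM scaling and 7.52 with library totals. Between HY33 and HY9115, a minimum of 5 FPKM left 3 pathway genes called at 12 h and 8 at 48 h, no filter gave 11 at 12 h, and TPM scaling gave 20 at 48 h, against 6 at 12 h and 13 at 48 h. The cause was not tested. With 1 library left out, Ah11g246200 ranged in HY33 from 0.48 to 1.77 at 3 h, 9.05 to 9.52 at 12 h, 8.26 to 8.70 at 24 h and 7.78 to 8.22 at 48 h, against HY9115 from -9.19 to -7.90 at 3 h, and in the difference from -0.04 to 1.24 at 3 h and 13.54 to 14.12 at 24 h. The value of -0.04, without HY33 replicate 1 at 3 h, turned the sign.

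TPM scaling placed the median of all genes at -0.504 in HY33 and -0.342 in HY9115 at 48 h, and library totals at -0.39 and -0.268. The split of pathway genes called moved with it. At 48 h in HY33, 69 had risen and 54 fallen, against 46 and 69 with TPM scaling and 49 and 66 with library totals. At 48 h in HY9115, 53 had risen and 67 fallen, against 36 and 83 and 39 and 81. At 24 h in HY33 the split was 49 and 30, against 39 and 41 and 39 and 38, and at 12 h in HY9115 it was 31 and 32, against 27 and 47 with TPM scaling. For HY33 against HY9115 it was 10 higher and 3 lower at 48 h, against 6 and 14 and 7 and 8, and 5 and 4 at 24 h, against 5 and 8 with TPM scaling and 5 and 2 with RLE scaling. For the difference of changes it was 6 and 7 at 3 h, against 13 and 5 and 9 and 6, and 28 and 6 at 48 h, against 23 and 9 with TPM scaling.

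The replicate numbers did not pair the libraries, since deviations of same-numbered libraries correlated at -0.155 to 0.111 over 135 pairs. With the replicate block the change of Ah11g246200 at 12 h was 9.19 in HY33 and -1.36 in HY9115, and 123 pathway genes were called at 48 h in HY33. The block ended 1 of 297 calls of named genes, that of Ah10g121900 in HY33 at 24 h, whose 3.83 rests on few counts. Counts near 0 in HY33 at 0 and 3 h limit every fold of Ah11g246200 there.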
